A study of Homo sapiens with 13 samples.

Results

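The HOX genes are the members of the 4 human homeobox clusters, HOXA, HOXB, HOXC and HOXD. They were taken here as every gene symbol of the RNA tables made of HOXA, HOXB, HOXC or HOXD followed only by a number. This gave 39 of 23637 gene symbols, with 11 in HOXA, 10 in HOXB, 9 in HOXC and 9 in HOXD. They were followed in TE-7, an established human line labelled as esophageal epithelial, grown without treatment (the controls) or with interleukin-13 (IL-13), a cytokine of allergic inflammation, at 100 ng/ml. RNA was sequenced from controls and IL-13 cultures at 2, 6 and 24 hr, which gave 6 libraries. Chromatin immunoprecipitation with sequencing (ChIP-seq) was done without and with IL-13 for 6 hr, for H3K4me3, H3K9Ac and H3K27Ac, marks found at active promoters and, in the case of H3K27Ac, also at enhancers. Each group was 1 library of 1 cell line.

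HOX genes code for homeodomain transcription factors that give cells a position along the head-to-tail axis and, in limbs, from shoulder to fingertip. Genes with the same number in different clusters are called paralogues, and the numbers 1 to 13 follow their order along the chromosome. Low numbers are expressed from the hindbrain backwards and high numbers only in the rear of the embryo, the limbs and the genital region. They bind DNA with the cofactors PBX and MEIS. Polycomb complexes hold unused HOX genes silent and MLL (trithorax) complexes keep used ones active, so adult cells tend to carry a stable record of where they came from.

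In the hg19 build the HOXA cluster lay on chromosome 7 and the HOXB cluster on chromosome 17 from 46606807 to 46806111, both on the minus strand. The HOXC cluster lay on chromosome 12 from 54332576 to 54449814 and the HOXD cluster on chromosome 2 from 176957532 to 177055635, both on the plus strand. Levels are given in RPKM, reads scaled to transcript length and to all mapped reads, so they can be compared between genes. From the smallest values of genes under 300 bp at 24 hr, 1 read in a transcript of 2 kb was worth 0.0369 RPKM without IL-13 and 0.0357 RPKM under it. HOX levels under about 0.1 RPKM thus stood for very few reads. Between 11794 and 12306 genes reached 1 RPKM in a library.

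Markers of squamous epithelium were present, with 10 of 12 at 1 RPKM or more and KRT5, a keratin of its basal layer, at a mean of 1685 RPKM. IVL and SPRR3, markers of its outer layers, stayed below 1 RPKM. None of 6 markers of columnar epithelium and none of 4 of blood reached 1 RPKM, and CDX2 was listed at 0 in every library. Of 6 fibroblast markers, COL1A1 alone did, with 2.04 to 3.89 RPKM, and of 3 endothelial markers VWF alone, with 4.21 RPKM in the 24 hr IL-13 library. The 2 hr control stood apart in 10 transcripts of brain, which summed to 27.6 RPKM there and to 7.31 to 8.23 RPKM in the other libraries. The controls at 2 and 6 hr shared 359 identical values above 0, while any other pairing of libraries shared 0, so p-values that use both controls may be too small. The part of both facts in the HOX values was not tested, but the 2 hr IL-13 library, without the high brain transcripts, is given beside the 2 hr control for each gene whose separate values are printed.

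TE-7 expressed most HOX genes, and mainly those of high number. A level of 1 RPKM in at least 1 library was reached by 28 of the 39 members, compared with 54.5% of all genes. These were 10 of 11 in HOXA, 5 of 10 in HOXB, 8 of 9 in HOXC and 5 of 9 in HOXD. In all 6 libraries 1 RPKM was reached by 24 members, compared with 47.6% of all genes. HOXB1 and HOXB13 were listed at 0 in every library, as were 18.3% of all genes. Of the 8 members in paralogue groups 1 to 3, 3 were expressed by the 1 RPKM rule, of the 15 in groups 4 to 8, 11 were, and of the 16 in groups 9 to 13, 14 were. The median over members of the mean level was 0.445, 1.93 and 5.20 RPKM in these groups. Groups 9 to 13 held 71.8% to 74.8% of the summed HOX RPKM of a library, and groups 1 to 3 held 4.80% to 5.38%.

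**Figure D1:**
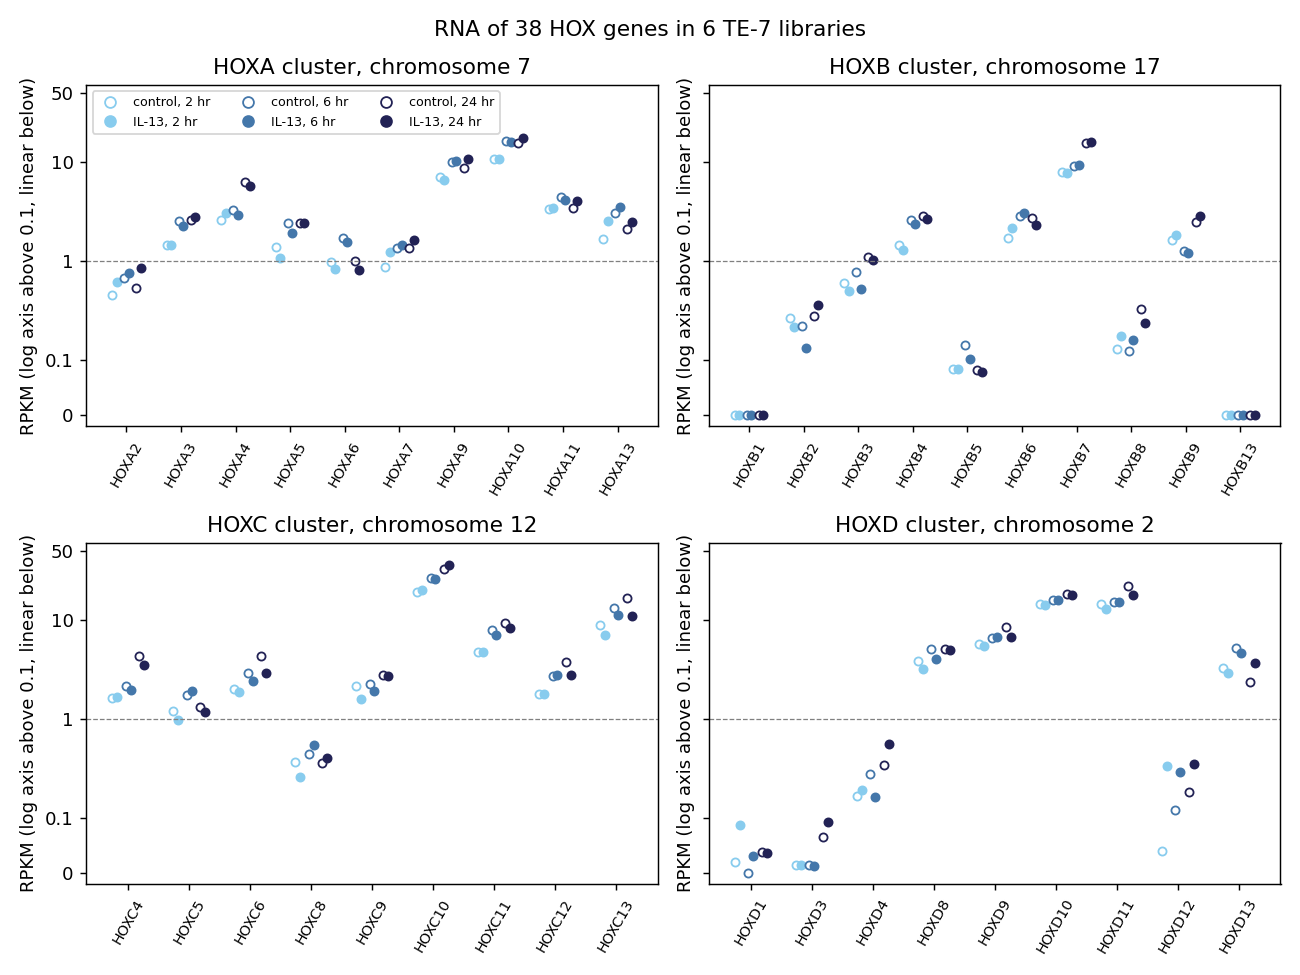
RNA level of 38 HOX genes in the 6 libraries, 1 panel per cluster, in RPKM on an axis that is logarithmic above 0.1 and linear below; each point is 1 library. HOXA10, HOXC10 and HOXD11 are the highest by mean in their clusters, and in HOXB HOXB7 leads with 7.79 to 15.9 RPKM and HOXB1 and HOXB13 lie at 0.

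Within the HOXC cluster, which summed to 40.0 to 75.3 RPKM in a library, HOXC10 was the highest of all 39 members. HOXC10, a gene of the lower trunk and hindlimb, stood at 19.1, 26.4 and 32.6 RPKM in the controls at 2, 6 and 24 hr and at 20.1, 25.7 and 35.4 RPKM with IL-13. It ranked above every other HOX gene in each of the 6 libraries, and its levels differed between times more than between treatments. HOXC13, which acts in hair follicles and nails, had 8.81, 13.2 and 16.6 RPKM in the controls and 7.01, 11.1 and 10.8 RPKM with IL-13. It was lower with IL-13 at each of the 3 times, although the ranges of the treatments over times overlapped. HOXC11, of the hindlimb and lower spine, had 4.74, 7.90 and 9.23 RPKM in the controls and 4.74, 7.09 and 8.33 RPKM with IL-13. HOXC12, its neighbour towards HOXC13, had 1.78, 2.70 and 3.73 RPKM in the controls and 1.78, 2.76 and 2.77 RPKM with IL-13. Both were lowest at 2 hr in either treatment.

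The rest of HOXC lay lower. HOXC9, a gene of the thoracic trunk, had 2.12, 2.26 and 2.77 RPKM in the controls and 1.59, 1.90 and 2.68 RPKM with IL-13. HOXC6 had 1.99, 2.88 and 4.34 RPKM in the controls and 1.86, 2.41 and 2.92 RPKM with IL-13. Both were lower with IL-13 at all 3 times. HOXC4, at the other end of the cluster from HOXC13, had 1.63, 2.12 and 4.32 RPKM in the controls and 1.68, 1.94 and 3.47 RPKM with IL-13, and was high at 24 hr only. HOXC5 had 1.20, 1.72 and 1.33 RPKM in the controls and 0.977, 1.91 and 1.17 RPKM with IL-13, highest at 6 hr in both treatments. HOXC8, a trunk gene between these and HOXC9, was the 1 silent member, at no more than 0.549 RPKM. In the mark tables a start at 54410642 of chromosome 12 was listed for HOXC4, HOXC5 and HOXC6 alike, so their reads could have been split among them.

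The HOXD cluster summed to 38.98 to 56.6 RPKM and split at HOXD8. HOXD11, which with HOXA11 shapes the forearm and kidney, had 14.4, 15.1 and 21.8 RPKM in the controls and 12.8, 15.2 and 17.8 RPKM with IL-13. HOXD10, a gene of spinal motor neurons and limb, had 14.4, 15.9 and 18.2 RPKM in the controls and 14.1, 15.8 and 17.6 RPKM with IL-13. Both were highest at 24 hr in either treatment, and their ranges overlapped each other. HOXD9, next to HOXD10, had 5.68, 6.60 and 8.49 RPKM in the controls and 5.38, 6.75 and 6.73 RPKM with IL-13. HOXD8 had 3.81, 5.02 and 5.12 RPKM in the controls and 3.16, 3.97 and 4.99 RPKM with IL-13, lower with IL-13 at each time. HOXD13, the gene of the digits, had 3.28, 5.21 and 2.38 RPKM in the controls and 2.92, 4.57 and 3.65 RPKM with IL-13, highest at 6 hr.

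The other 4 HOXD genes were silent by the 1 RPKM rule. HOXD1, HOXD3 and HOXD4, on the other side of HOXD8, had no more than 0.0860, 0.0931 and 0.550 RPKM. HOXD12 lies between HOXD11 and HOXD13, both expressed. It had 0.0392, 0.120 and 0.181 RPKM in the controls and 0.331, 0.288 and 0.351 RPKM with IL-13. The 3 IL-13 values all lay above the 3 controls, at levels of a few reads.

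The HOXA cluster, at 34.8 to 54.0 RPKM in sum, was expressed along nearly its whole length. HOXA10, a gene of the uterus and lower trunk, had 10.7, 16.1 and 15.5 RPKM in the controls and 10.8, 16.1 and 17.3 RPKM with IL-13. HOXA9, known for its part in blood stem cells and leukemia, had 7.07, 10.1 and 8.69 RPKM in the controls and 6.54, 10.2 and 10.7 RPKM with IL-13. Both were lowest at 2 hr. A read-through gene, HOXA10-HOXA9, overlaps these members in the tables and was listed at 0 in every library. HOXA11 had 3.38, 4.38 and 3.42 RPKM in the controls and 3.41, 4.09 and 4.06 RPKM with IL-13. HOXA13, the gene of the hand, foot and genital tract, had 1.68, 3.03 and 2.11 RPKM in the controls and 2.52, 3.52 and 2.47 RPKM with IL-13. HOXA13 was higher with IL-13 at each time.

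Towards the front of HOXA, HOXA4 had 2.61, 3.31 and 6.27 RPKM in the controls and 3.02, 2.93 and 5.78 RPKM with IL-13, and its 24 hr values lay above all others. HOXA3, which patterns thymus and parathyroid, had 1.45, 2.50 and 2.60 RPKM in the controls and 1.47, 2.27 and 2.75 RPKM with IL-13. HOXA5, a gene of lung and trachea development, had 1.37, 2.40 and 2.40 RPKM in the controls and 1.08, 1.91 and 2.41 RPKM with IL-13. Both were lowest at 2 hr. HOXA6 had 0.978, 1.70 and 1.01 RPKM in the controls and 0.828, 1.55 and 0.819 RPKM with IL-13, highest at 6 hr. HOXA7, known from keratinocytes among other cells, had 0.861, 1.34 and 1.35 RPKM in the controls and 1.23, 1.45 and 1.64 RPKM with IL-13, higher with IL-13 at each time. HOXA2, which patterns the face and middle ear, was the 1 member below the minimum, at 0.457 to 0.842 RPKM.

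The HOXB cluster summed to 13.7 to 25.4 RPKM, less than any other cluster in each library, and HOXB7 made up most of it. HOXB7, a trunk gene often studied in carcinoma, had 7.88, 9.14 and 15.5 RPKM in the controls and 7.79, 9.24 and 15.9 RPKM with IL-13. At each time the treatments lay close together, and both rose at 24 hr. HOXB6 had 1.70, 2.82 and 2.74 RPKM in the controls and 2.17, 3.04 and 2.32 RPKM with IL-13. HOXB4, known for expanding blood stem cells, had 1.45, 2.62 and 2.83 RPKM in the controls and 1.29, 2.34 and 2.63 RPKM with IL-13. HOXB4 was thus lower at 2 hr than later. HOXB9 had 1.61, 1.25 and 2.48 RPKM in the controls and 1.83, 1.20 and 2.85 RPKM with IL-13, with the lowest values at 6 hr. HOXB3 had 0.596, 0.773 and 1.10 RPKM in the controls and 0.4998, 0.520 and 1.03 RPKM with IL-13, and reached the minimum at 24 hr only. HOXB2, HOXB5 and HOXB8 reached no more than 0.356, 0.142 and 0.323 RPKM, so HOXB5 and HOXB8 were silent on either side of HOXB6 and HOXB7.

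Ordered by their mean over the 6 libraries, the members led with HOXC10 at 26.6 RPKM, HOXD11 at 16.2, HOXD10 at 16.0, HOXA10 at 14.4, HOXC13 at 11.3, HOXB7 at 10.9, HOXA9 at 8.87, HOXC11 at 7.01 and HOXD9 at 6.60 RPKM. The ranges of neighbours in this order overlapped down to HOXD9, although HOXC10 was above HOXD11 in 6 of 6 libraries. HOXB3, with a mean of 0.752 RPKM, was the lowest of the expressed members. The 3 members of paralogue group 10, HOXA10, HOXC10 and HOXD10, were all above 10 RPKM in every library. Group 2 had no expressed member, and in group 13 the means ran from 0 (HOXB13) to 11.3 RPKM (HOXC13).

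The marks were read from the level of each peak assigned to a gene's start, which is 2 to the power of the mean log2 level over both libraries of a mark. A member was called marked when a start of it reached a level of 30 in the higher library. H3K4me3 marked 24 of 39 members, compared with 48.2% of all gene symbols, H3K9Ac 30, compared with 54.2%, and H3K27Ac 30, compared with 55.3%. In HOXA 10 of 11 members carried each mark. In HOXB 3 of 10 carried H3K4me3 and 8 of 10 each acetylation mark. In HOXC 7 of 9 carried H3K4me3 and 8 of 9 each acetylation mark, and in HOXD 4 of 9 carried each mark.

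**Figure D2:**
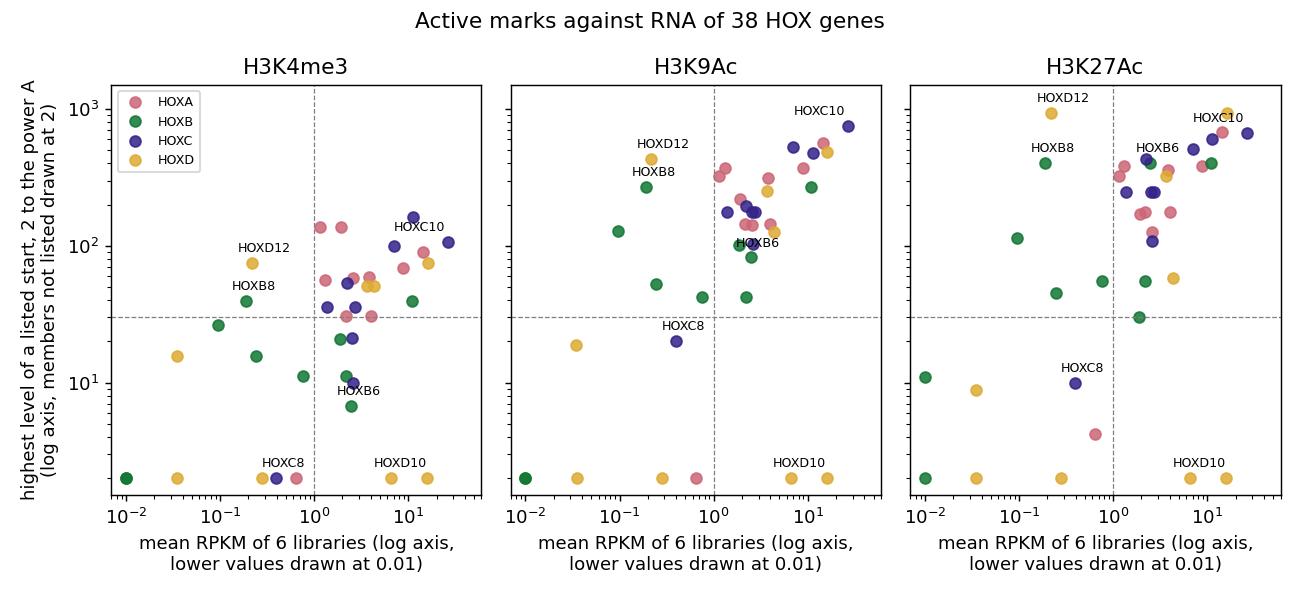
Highest level of a listed start for each mark (vertical, log axis, genes not listed drawn at 2) against the mean RPKM of 6 libraries (horizontal, log axis, lower values drawn at 0.01); each point is 1 of 38 HOX genes, coloured by cluster, and dashed lines are at a level of 30 and at 1 RPKM. HOXD12 sits at an H3K27Ac level of 942 although silent by RNA, and HOXD10, at 16.0 RPKM, is not listed for any mark.

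Several of the strongest peaks stood at the most expressed genes, but others stood at members of lower RNA level. HOXC10 had levels of 107 for H3K4me3, 750 for H3K9Ac and 671 for H3K27Ac at its start, and its H3K9Ac level was at the percentile 99.6 of all gene symbols listed. HOXA10 had 90.5, 560 and 676, HOXC11 had 99.0, 526 and 508, and HOXC13 had 163, 474 and 605 for the same marks. These 4 genes stood at percentiles of 97.2 to 99.1 for H3K27Ac and of 71.4 to 94.5 for H3K4me3. The acetylation rows of HOXC10 and the H3K27Ac row of HOXA10 are among those, described further on, whose values did not belong together. HOXB7 shared its H3K27Ac peak, at 405, with HOXB6 and HOXB8, and its H3K4me3 level was 39.4. HOXA5 and HOXA6, at means of 1.93 and 1.15 RPKM, each had an H3K4me3 level of 137, above that of HOXC10. HOXA7, at a mean of 1.31 RPKM, had levels of 370 for H3K9Ac and 385 for H3K27Ac. Its neighbour HOXA9, at a mean of 8.87 RPKM, was listed with the same levels, in rows whose values did not belong together. Whether these levels come from a shared peak cannot be told.

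Peaks were often shared by neighbours, since starts in these clusters lie close together. The marked peaks came to 21 distinct ones for H3K4me3, 33 for H3K9Ac and 30 for H3K27Ac, and 6, 9 and 9 of them were listed for 2 or more members. Peaks were merged only when all their listed values were equal. HOXA5 and HOXA6, with the same H3K4me3 level and p-value, were thus counted apart, so sharing may be understated. HOXA3 and HOXA4 shared 1 peak per mark as their highest, with levels of 30.9, 145 and 176, and HOXB3 and HOXB4 did so with 11.2, 42.2 and 54.9. Members are therefore not independent in the counts of marks.

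Of the 28 expressed members, 21 carried H3K4me3, 26 H3K9Ac and 26 H3K27Ac, compared with 80.1%, 88% and 88.3% of all expressed genes. All 3 marks were found at 21, compared with 78.7% of all expressed genes. HOXB3, HOXB4, HOXB6, HOXB9 and HOXC12 carried both acetylation marks without H3K4me3. The levels of H3K4me3 at these 5 were 11.2, 11.2, 6.77, 20.8 and 9.92, so 4 of the 5 expressed HOXB genes were below the minimum for this mark. HOXD9 and HOXD10, at means of 6.60 and 16.0 RPKM, were not listed in any of the 3 mark tables; of all expressed genes 9.38% carried no mark. Their unlisted state is a fact of the tables and gives no level of 0.

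Of the 11 silent members, 3 carried H3K4me3, 4 H3K9Ac and 4 H3K27Ac, compared with 9.89%, 13.6% and 15.7% of all genes below 1 RPKM. No mark was found at 7, compared with 82.6% of all genes below 1 RPKM. They were HOXA2, HOXB1, HOXB13, HOXC8, HOXD1, HOXD3 and HOXD4. Among them HOXC8 was listed with levels of 20.1 for H3K9Ac and 9.92 for H3K27Ac, HOXD1 with 15.7, 18.8 and 8.88 for the 3 marks, and HOXA2 and HOXB1 with 4.23 and 10.9 for H3K27Ac. HOXB13, HOXD3 and HOXD4 were not listed for any mark. HOXB2 carried both acetylation marks, at 52.3 and 45.3. HOXB5, HOXB8 and HOXD12 carried all 3, compared with 9.03% of all genes below 1 RPKM. HOXB8 and HOXD12 had these marks on peaks that were also listed for an expressed neighbour, HOXB7 and HOXD11, except for the H3K9Ac row of HOXD12. That row held a level of 431 that did not belong with its other values, and its M of 0.47 and its p-value were those listed at HOXD13, also expressed. HOXB5 had peaks of 26.4, 128 and 115, shared with starts of HOXB-AS3 but with no other member, beside a level of 0.0783 to 0.142 RPKM.

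The HOXD genes with the strongest, a shared and no listed peak are shown with the sequence before their starts, together with HOXB1, listed at 0 in all RNA libraries. Each is the 250 bases upstream of a RefSeq start in GRCh38.p14, 5′ to 3′ on the gene's strand, with CG pairs in capitals. HOXD11 is from chr2:176107030-176107279, HOXD12 from chr2:176099545-176099794 and HOXD10 from chr2:176116528-176116777, all on the plus strand, and HOXB1 from chr17:48531012-48531261 on the minus strand.
HOXD11: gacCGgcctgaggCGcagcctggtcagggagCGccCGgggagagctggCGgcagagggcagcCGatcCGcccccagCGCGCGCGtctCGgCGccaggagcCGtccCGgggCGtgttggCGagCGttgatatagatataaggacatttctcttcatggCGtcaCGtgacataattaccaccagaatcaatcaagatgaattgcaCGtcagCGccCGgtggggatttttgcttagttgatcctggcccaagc
HOXD12: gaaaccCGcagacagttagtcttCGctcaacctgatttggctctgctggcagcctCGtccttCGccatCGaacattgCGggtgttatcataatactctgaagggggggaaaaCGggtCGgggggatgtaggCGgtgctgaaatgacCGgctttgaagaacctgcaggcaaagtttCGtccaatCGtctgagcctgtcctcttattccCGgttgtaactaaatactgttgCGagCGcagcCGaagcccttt
HOXD10: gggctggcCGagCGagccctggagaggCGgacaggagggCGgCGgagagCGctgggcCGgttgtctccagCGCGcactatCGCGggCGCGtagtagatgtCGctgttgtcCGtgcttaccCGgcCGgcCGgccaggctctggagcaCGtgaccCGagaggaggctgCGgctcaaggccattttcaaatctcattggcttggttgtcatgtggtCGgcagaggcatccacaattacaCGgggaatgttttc
HOXB1: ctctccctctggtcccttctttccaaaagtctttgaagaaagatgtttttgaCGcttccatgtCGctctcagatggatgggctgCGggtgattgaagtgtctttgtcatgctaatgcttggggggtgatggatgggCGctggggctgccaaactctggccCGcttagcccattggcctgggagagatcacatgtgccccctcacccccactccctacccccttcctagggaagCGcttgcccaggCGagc
HOXD11 and HOXD10 held 23 CG pairs each, HOXD12 held 16 and HOXB1 held 7. The observed over expected CpG ratio, which is high in CpG islands, was 0.976 for HOXD11, 0.907 for HOXD12, 0.923 for HOXD10 and 0.343 for HOXB1. HOXD10, unlisted for all marks, thus had a ratio near that of HOXD11.

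RefSeq promoters were at hand for 20 of the 39 members, 27 entries in all. HOXC4 and HOXC5 shared 1, which left 26 distinct promoters, and HOXA3 alone gave 7. Their median CpG ratio was 0.888, compared with 0.558 over 35116 promoters of all genes, and their median GC content was 58.8% and 58% in turn. The 14 members with 3 marks had a median ratio of 0.888 over 21 entries, and of 0.897 when each gene counted once by its own median. The 6 with no mark were the silent HOXA2, HOXB1, HOXD1, HOXD3 and HOXD4 and the expressed but unlisted HOXD10, with 1 promoter each. Their median ratio was 0.748, with a range of 0.287 to 0.959 that held HOXD3 at its upper end. The letters TATAAA, searched on both strands, were in 5 of the 27 HOX entries (18.5%) and in 10.7% of all promoters. The letters TGATNNAT, a form of the HOX and PBX motif, were in 3 of the 27 (11.1%) and in 6.47% of all. Both HOX shares rest on few entries.

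Between the libraries of a mark, most HOX peaks differed less than 2-fold, as did most peaks over all genes. The HOX counts below rest on few peaks. The headers do not say which library was treated, so the libraries are called 1 and 2 and M is the log2 ratio of 1 over 2. For H3K4me3, 1 of 21 HOX peaks was higher in library 1, compared with 6.02% of all peaks, and 3 were higher in library 2, compared with 4.82%. The peak higher in library 1 was that at the shared start of HOXC4, HOXC5 and HOXC6, with M of 1.00. It lay right at both limits, with a level of 30.1 in the higher library, and was the only H3K4me3 peak listed for HOXC4. Those higher in library 2 included the peak of HOXA13, with M of -1.05, and that of HOXC9, with -1.01. For H3K9Ac, 0 of 33 were higher in library 1 and 1, at HOXC4 with M of -1.03, in library 2, compared with 3.79% and 3.59%. For H3K27Ac, 3 of 30 were higher in library 1 and 0 in library 2, compared with 5.04% and 3.71%. The 3 lay at HOXC4 with M of 1.46, at HOXB3 and HOXB4 with 1.76 and at HOXC9 with 1.16. The peak of HOXB3 and HOXB4 had a level of 31.3, and a stronger one at the same starts, at 54.9, had M of -0.43. That of HOXC4 had a level of 24.9, whereas the highest peak listed for HOXC4, at 246, had M of 0.29.

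In some rows M, the mean level and the p-value did not belong together, as found by computing the p-value again from the first pair. This held for both HOXC9 peaks above, and the start of MIR196A2 was listed with the same H3K27Ac level as HOXC9 and M of 0.16. The 3 values went together in 86.1% of H3K4me3 rows, 77.6% of H3K9Ac rows and 78.7% of H3K27Ac rows. With only the HOX peaks whose values went together, 19, 24 and 23 in turn, M ran from -1.05 to 1.00, from -1.03 to 0.65 and from -0.47 to 1.76, with medians of 0.09, 0.16 and 0.02.

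No HOX gene compared differed 2-fold between IL-13 and control. At 2 hr 26 members could be compared, at 6 hr 27 and at 24 hr 28, each with at least 1 RPKM in the higher library. A gene was counted when it differed at least 2-fold on log2(RPKM + 0.1), a scale that understates changes of low genes. At each time 0 members were higher and 0 lower, compared with 0.658% of all genes higher and 0.342% lower at 2 hr, 0.753% and 0.318% at 6 hr, and 0.886% and 1.27% at 24 hr. The log2 ratios ran from -0.39 (HOXC9) to 0.55 (HOXA13) at 2 hr, from -0.33 (HOXD8) to 0.21 (HOXA13) at 6 hr and from -0.61 (HOXC13) to 0.60 (HOXD13) at 24 hr. Their medians were -0.02, -0.05 and -0.05, beside 0.00, -0.00 and 0.02 over all genes compared.

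**Figure D3:**
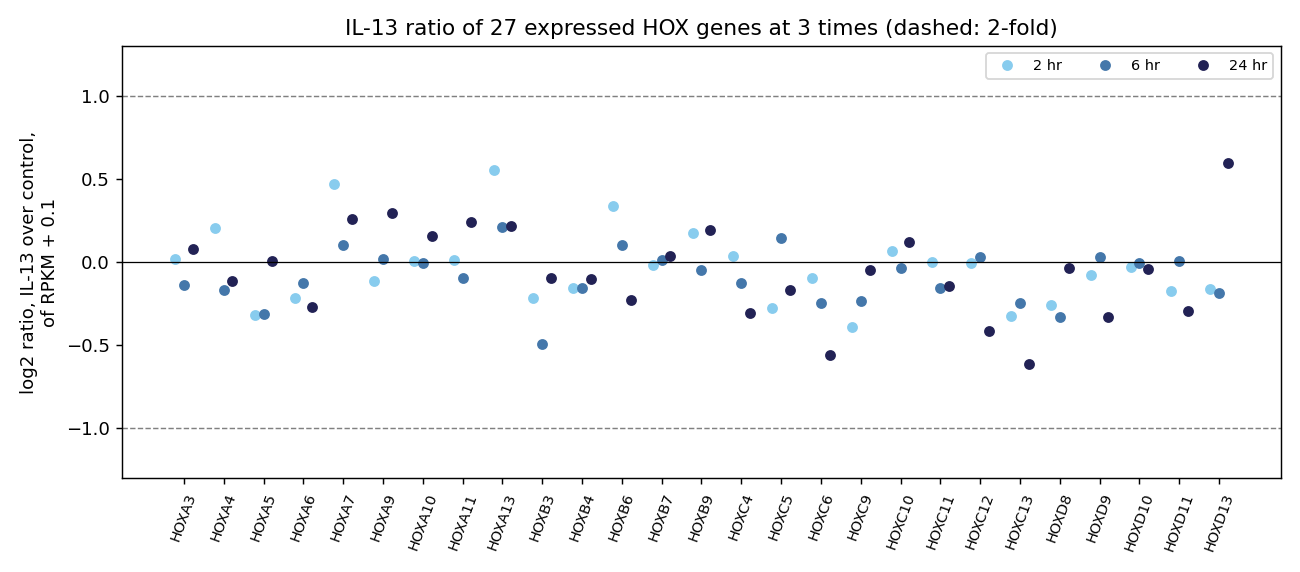
Log2 ratio of IL-13 over control for 27 expressed HOX genes at 2, 6 and 24 hr, on log2(RPKM + 0.1), with lines at 2-fold; each point is 1 pair of libraries. All points lie between -0.61 and 0.60, inside the 2-fold lines.

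A fit over all 6 libraries with limma, with time and treatment as terms, tested the effect shared by the times. It found 0 of 27 members and 0 of 11953 genes at an adjusted p under 0.05, compared with 0% of all genes called in either direction. At an unadjusted p under 0.05 there were 8 members, compared with 16.9% of all genes. HOXC13 differed by -0.39 ± 0.09 (SE, log2) at an adjusted p of 0.200, and was lower with IL-13 at 3 of 3 times. HOXA13 differed by 0.33 ± 0.09 at an adjusted p of 0.229, and was higher at 3 of 3. The other 6 were HOXA7 at 0.28 and HOXA6, HOXB4, HOXC6, HOXC9 and HOXD8 at -0.14 to -0.30. By the authors' deposited table no member had an adjusted p under 0.05, and the lowest was that of HOXC13 at 24 hr, 0.522, with an unadjusted p of 0.011 and a log2 ratio of -0.63. Over all genes their tables held 0.0127%, 0.351% and 0.592% under 0.05 at 2, 6 and 24 hr.

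HOXC-AS5, an antisense gene whose start lies beside that of HOXC13, had 4.89, 4.82 and 8.46 RPKM in the controls and 4.84, 4.79 and 4.63 RPKM with IL-13. It stood apart in the 24 hr control, the library where HOXC13 was also highest. Whether strand was used in counting is not given in the sources used here, so reads of the pair cannot be told apart.

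HOX levels also differed between times. From 2 to 6 hr, 26 of 27 members compared were higher in the controls and 25 of 27 with IL-13, with median log2 ratios of 0.50 and 0.46. Over all genes 65.0% and 63.3% were higher, with medians of 0.10 and 0.09. By the 2-fold rule 0 members were called in either direction, compared with 0.2% higher and 2.36% lower over all genes in the controls, and 0.522% and 2.9% with IL-13. The IL-13 pair holds neither of the controls that share identical values.

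With limma, 14 of 27 members rose from 2 to 6 hr and 1 fell, compared with 18.3% and 10% of all genes. This contrast was chosen after seeing the data, and the controls that share values can make its p-values too small. HOXB4 rose by 0.81 ± 0.05 (SE, log2; adjusted p 0.00737), HOXA6 by 0.78 ± 0.06 (adjusted p 0.00933), HOXA5 by 0.76 ± 0.10 (adjusted p 0.0196) and HOXC11 by 0.65 ± 0.07 (adjusted p 0.0133). HOXA10 rose by 0.58 ± 0.07 and HOXC10 by 0.41 ± 0.06, at adjusted p of 0.0163 and 0.0237. The others that rose included HOXA3, HOXA9, HOXA13, HOXB7, HOXC5, HOXC12 and HOXC13. HOXB9 fell by 0.46 ± 0.08 on the log2 scale (adjusted p 0.0287). When genes of low level were kept in the fit, 0 members passed, compared with 0.0466% of all genes that rose and 0.72% that fell. There HOXB4 again differed by 0.81, at an adjusted p of 0.0521. Without the 24 hr libraries 22 members rose and 1 fell, compared with 35.7% and 16.6% of all genes.

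From 6 to 24 hr the members went different ways. Among the RNA values, only those of 24 hr have headers with a date-like number and the name of the line. Whether this pair of libraries was prepared apart is not given, so preparation and time cannot be told apart. By the 2-fold rule HOXD13 was lower in the controls, with a log2 ratio of -1.10, and 0 members were higher, compared with 6.09% and 16.2% of all genes. With IL-13 HOXB9 was higher, with a log2 ratio of 1.18, and 0 were lower, compared with 14.9% and 5.01%. In the limma fit 10 members rose and 4 fell, compared with 46.6% and 26.1% of all genes, though these shares depended on the scaling, given further on. The median log2 difference of the 27 members was 0.16 and that of all genes 0.18.

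Among those that rose from 6 to 24 hr, HOXB9 rose by 1.06 ± 0.08 (SE, log2; adjusted p 0.000909), HOXA4 by 0.93 ± 0.11 (adjusted p 0.00254), HOXC4 by 0.90 ± 0.10 (adjusted p 0.00197) and HOXB7 by 0.76 ± 0.05 (adjusted p 0.000723). HOXC6, HOXC9, HOXC10, HOXC11, HOXD10 and HOXD11 rose by 0.18 to 0.42. HOXA6 fell by 0.77 ± 0.06 (adjusted p 0.00096), HOXD13 by 0.71 ± 0.22 (adjusted p 0.0437), HOXC5 by 0.51 ± 0.12 (adjusted p 0.0179) and HOXA13 by 0.50 ± 0.11 (adjusted p 0.015). HOXA6, HOXA13 and HOXC5 had also risen from 2 to 6 hr, so their 6 hr values were the highest. Quantile normalization moved the median of all genes to -0.01, and with it 5 members rose and 9 fell, compared with 33.3% and 35.3% of all genes, and the median of the members was -0.21. Under quantile normalization HOXC6, HOXC9, HOXC11 and HOXD10 were no longer higher at 24 hr, HOXD11 differed by 0.18 at an adjusted p of 0.171, and HOXA4, HOXB7, HOXB9, HOXC4 and HOXC10 still rose. When genes of low level were kept in the fit, 7 of 37 members rose and 3 fell, compared with 32.1% and 16.3% of all genes. HOXC6, HOXC9, HOXC11, HOXD10, HOXD11 and HOXD13 then missed the threshold at adjusted p of 0.0507 to 0.092, with the same differences. HOXC11 and HOXD10 also missed it without the 2 hr libraries, at 0.071 and 0.124. With 2 hr in place of 6 hr, 21 of 27 members rose to 24 hr and 0 fell, compared with 52% and 21.5% of all genes, and under quantile normalization 12 rose and 0 fell, compared with 34.9% and 31.8%.

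**Figure D4:**
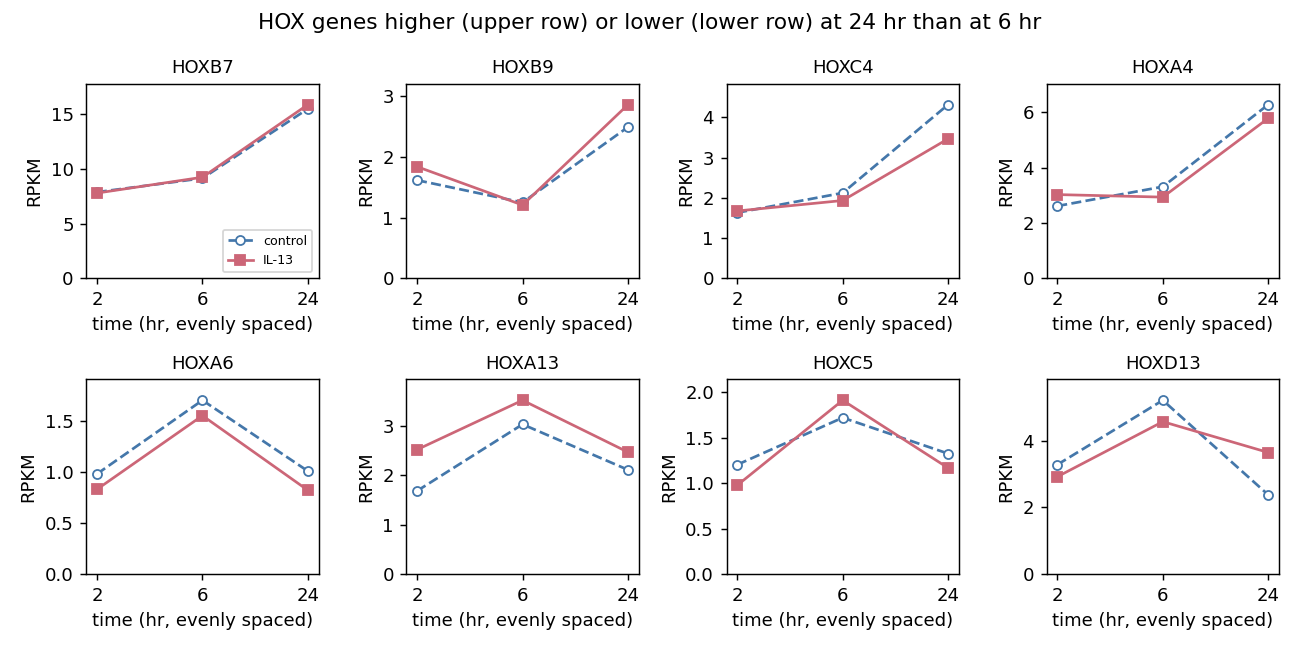
RPKM of 8 HOX genes at 2, 6 and 24 hr in the control and IL-13 libraries, 1 panel per gene, each point 1 library. HOXB7 climbs to 15.5 and 15.9 RPKM at 24 hr, whereas HOXA6 and HOXD13 are highest at 6 hr.

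The partners and regulators of HOX proteins were present in these cells. Of 9 cofactor genes 8 reached 1 RPKM, compared with 54.5% of all genes. They were led by PBX2 with a mean of 21.6 RPKM, MEIS2 with 9.07, PBX3 with 7.81 and MEIS3 with 6.58 RPKM. From 6 to 24 hr 4 of 8 cofactors tested with limma rose, PBX2, MEIS2 and MEIS3 among them, and 0 fell. Over all genes 46.6% rose and 26.1% fell. All 30 Polycomb genes reached 1 RPKM, with RBBP7, PHF19 and EED among the highest at 123, 50.1 and 22.5 RPKM. Of 29 tested 15 rose and 8 fell, beside the same shares of all genes. Of the MLL and trithorax list 20 of 24 symbols were in the tables, and the absent ones were newer names of MLL genes that were found. All 20 were expressed, led by WDR5 and DPY30, subunits shared by the MLL complexes, at 75.3 and 48.1 RPKM. Of these 9 rose and 5 fell, near the shares of all genes given above.

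Of 18 upstream inducers, 10 reached 1 RPKM, compared with 54.5% of all genes. CDX1, CDX2, CDX4 and ALDH1A2 were listed at 0 in every library. ALDH1A3, an enzyme that makes retinoic acid, had 224, 209 and 38.7 RPKM in the controls and 213, 199 and 34.2 RPKM with IL-13. ALDH1A1, of the same family, had 1.45, 1.24 and 40.5 RPKM in the controls and 1.56, 1.21 and 36.7 RPKM with IL-13. The enzymes thus crossed between 6 and 24 hr in both treatments. With limma 5 of 9 inducers tested rose from 6 to 24 hr and 4 fell, compared with 46.6% and 26.1% of all genes. RARB, a retinoic acid receptor, was the 1 inducer past the 2-fold rule with IL-13, at 1.71 RPKM in the 24 hr control and 6.29 RPKM in its IL-13 partner. In the effect of IL-13 shared by the times, 0 genes of any of these lists passed with limma. Since 0 of all 11953 genes passed, this count says nothing particular about the lists.

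Other regulators of the foregut gave 6 of 14 expressed genes, compared with 54.5% of all genes. SOX2, which sets the esophagus apart from the airway, had 10.1, 16.4 and 49.2 RPKM in the controls and 26.7, 37.7 and 105 RPKM with IL-13. It was 2-fold higher with IL-13 at each time, the 1 gene of this list to be so, with an adjusted p of 0.114 in the limma fit. Of 8 genes that neighbour the clusters 4 were expressed, near the share of all genes. With IL-13 0 of them passed the 2-fold rule, beside the small shares of all genes given above.

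Of 19 other RNAs of the HOX clusters in the tables, 8 reached 1 RPKM, compared with 54.5% of all genes. HOTAIR, a long noncoding RNA from between HOXC11 and HOXC12, had 1.25, 1.79 and 3.67 RPKM in the controls and 1.21, 1.70 and 3.38 RPKM with IL-13. HOTAIRM1, a long noncoding RNA of the HOXA cluster, had 3.35, 2.93 and 6.30 RPKM in the controls and 2.68, 3.28 and 6.78 RPKM with IL-13. Both were highest at 24 hr, and limma gave rises from 6 to 24 hr of 0.97 ± 0.05 and 1.05 ± 0.14 (SE, log2) at adjusted p of 0.000535 and 0.00315. HOTAIR has a start inside HOXC11 on the other strand, so reads of this pair cannot be told apart either. HOTTIP, from beside HOXA13, stayed at 0.0979 to 0.283 RPKM. HOTAIR carried all 3 marks, at levels of 99.0, 526 and 508 that it shared with HOXC11.

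The microRNAs of the clusters target HOX messages, and 4 of their 6 loci, MIR10A, MIR196A2, MIR196B and MIR615, had a start listed in the mark tables. Mature forms from RefSeq are shown to group the loci by their seed, bases 2 to 8, in capitals.
hsa-miR-196a-5p: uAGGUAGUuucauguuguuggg
hsa-miR-196b-5p: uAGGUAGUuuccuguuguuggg
hsa-miR-10a-5p: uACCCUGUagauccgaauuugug
hsa-miR-615-3p: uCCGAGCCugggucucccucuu
The forms of miR-196 shared their seed and differed by 1 substitution, A12C, counted from the 5′ end of hsa-miR-196a-5p. MIR10A, MIR10B and MIR196A2 were listed at 0 RPKM in every library, and MIR615 had at most 0.332 RPKM. MIR196B, between HOXA9 and HOXA10, had 0.894, 1.90 and 0 RPKM in the controls and 1.05, 0 and 0 RPKM with IL-13. It was the 1 cluster RNA lower by 2-fold with IL-13, at 6 hr, against a value listed at 0. These values refer to the listed precursor genes, not to the mature microRNAs. Such precursors are far shorter than 2 kb, so 1 read is worth more RPKM than given above. The values of MIR196B, and its 2-fold difference, may thus rest on very few reads. The start of MIR196A2 had levels of 750 for H3K9Ac and 431 for H3K27Ac, those of the HOXC10 and HOXC9 starts in turn, and MIR196B had 560 and 676, those of HOXA10.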

How the data were processed

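RNA was measured in 6 libraries and 3 histone marks in 6 ChIP-seq libraries; the input library was not used. Per the file headers, the authors deposited RPKM for every gene symbol with log2 ratios, each with its raw and adjusted p-value. Each ChIP-seq table of the authors gives, at every start, M (a log2 ratio), A (an average log2 level) and −log10 p. By the submitters' processing notes the tools were DESeq with TopHat2 2.0.9 (RNA) or with MACS2 2.0.10.20130712 and Bowtie 1.0.0 (ChIP-seq), on hg19. Read counting, annotation and peak rescaling were not given in the sources used here. In the ChIP tables starts on the plus strand were counted from 0, and 1 was added. The 6 columns of raw reads were not used because the treatment of the libraries is not stated.

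Here log2(RPKM + 0.1) was compared between libraries with a 2-fold rule at 1 RPKM or more in the higher library. A check of limma on simulated data drew independent noise for each library, so it did not cover the values shared by the controls. Limma 3.58.1 in R 4.3.3 was fitted to genes of at least 1 RPKM in at least 3 libraries, with time and treatment as terms. Limma was used with Benjamini-Hochberg adjustment over all genes at 0.05. With 1 library per group its p-values measure the spread between these libraries, which may be technical, and nothing says that they came from separate cultures. Level and marking were computed from A and M, with a minimum of 30 in the higher library. Peaks with equal values within 20 kb were counted once. A recomputed −log10 p within 0.1 plus 10% counted as going together. Python 3.11.15, pandas 2.3.3 and SciPy 1.17.1 were used for the rest.

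The HOX genes, the gene lists and the tests were chosen with earlier results of these data known. All 39 members enter the counts, and those at 1 RPKM or more in any library are given with every value, except 1 that, like a few genes of other lists, is not reported here. Of other lists up to 4 genes by mean RPKM and up to 4 that were called are named. HOXC-AS5, HOTTIP, MIR615, IVL, SPRR3, COL1A1, KRT5 and ALDH1A1 were named after their values were seen. Alternatives covered pseudocount, minimum level, centring, quantile normalization and leaving out the libraries of each time.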

Additional observations from a re-analysis of the deposited data

How the results depend on the processing

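With a minimum of 3 RPKM, 12 HOX genes were expressed in all 6 libraries. With a minimum of 0.5 RPKM, 4 silent members carried no mark. With no minimum, 1 member, HOXD12, was 2-fold higher with IL-13 at 2 hr and 2 were higher at 24 over 6 hr with IL-13. A pseudocount of 1 left 0 members lower at 24 over 6 hr in the controls and 0 higher with IL-13. Centring on all genes left 0 higher and 1 lower, HOXA6, with IL-13. In the limma fit of 24 with 6 hr, quantile normalization gave 5 that rose and 9 that fell, with HOXD10 at -0.045, HOXC6 at -0.017, HOXC9 at -0.049 and HOXC11 at -0.098. In 24 with 2 hr 21 rose and 0 fell. For 6 with 2 hr, chosen after seeing the data like its alternatives, 0 rose and 0 fell with no filter, and 22 rose without the 24 hr libraries. No IL-13 effect shared by the times passed for a member under any alternative run. The causes were not tested. For the other RPKM minimums, pseudocount and centring no share over all genes was computed under the 2-fold and expression rules. Those counts describe the members alone.

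By the mean level of both libraries, an alternative not planned, H3K4me3 marked 22 members. At a level of 100, H3K4me3 marked 7 members, and 2-fold H3K4me3 peaks came to 0 in either library. At any listed start they came to 3 in library 1 and 6 in library 2. H3K9Ac peaks higher in library 2 came to 0 at a level of 100, and to 0 with only the highest start of each member. H3K27Ac peaks higher in library 1 came to 1 under each of these, that of HOXC9, whose values did not belong together. Those higher in library 2 came to 2 at any listed start. No share over all genes or peaks was computed for these mark settings, so the counts describe the members alone. No paired analysis was possible because each group is 1 library, so the replicate numbers pair nothing; the limma fit compares treatments within each time through its time term. With 1 library per group no value has a replicate check. Values under about 0.1 RPKM, and some higher ones of very short genes, rest on few reads.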
